A study of Homo sapiens with 12 samples.

Results

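NOTCH3, a receptor of the Notch pathway, was examined together with the 9 further Notch genes NOTCH1, NOTCH2, NOTCH4, JAG1, JAG2, HES1, HES4, HEY1 and HEYL in RNA from xenografts of Hep3B, an established human hepatocellular carcinoma line. Genes were taken by name from the authors' table of 4988 genes, which lists 2 of these 10, NOTCH3 and JAG1, and the other 8 were not analysed here. The groups were control tumours and tumours treated with bufotalin, a bufadienolide of toad venom that inhibits the sodium pump. Each group had 3 total RNA libraries and 3 small RNA libraries. The titles and tissue entries call the samples xenografts, whereas the series' design text speaks of Hep3B cells. Dose, duration, route and host animal are not given in the sources used here, nor is it stated that replicates came from separate animals, so a p-value speaks only to the spread among these libraries, and that spread may be technical.

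NOTCH3 was chosen for its difference in these same libraries, so its values and those of JAG1 are a description with no test. The authors' table moreover holds features that they selected as different: of 4273 genes tested, 3981 (93.2%) passed the test used here, with 1894 (44.3%) higher and 2087 (48.8%) lower with bufotalin, and in 4608 of all 4988 genes (92.4%) the groups did not overlap. A call for a single gene of the table is therefore read against that background. Of 12 hepatocyte and liver tumour markers, 2 were in the table, both too low to test. TF (transferrin) was listed at 0 in all 3 control libraries and reached at most 0.0402 FPKM (fragments per kilobase and 1000000 mapped fragments) with bufotalin. These 2 markers do not bear out the labelled cell type. A table selected for difference can lack markers that did not change, so the label could not be checked here. RNA was measured in bulk, where fewer cells of a type and less RNA per cell cannot be told apart.

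Notch receptors are single-pass membrane proteins that are activated by ligands of the Jagged and Delta-like families on a neighbouring cell. Ligand binding exposes the receptor to ADAM proteases and then to gamma-secretase, which frees an intracellular domain that enters the nucleus, joins the DNA-binding protein RBPJ and a Mastermind coactivator, and turns on targets such as the HES and HEY repressors. NOTCH3 is best known in vascular smooth muscle cells and pericytes, and it is also expressed in a number of carcinomas, liver cancer among them. JAG1 is a ligand for Notch receptors with well-known roles in bile duct and vessel formation.

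The NOTCH3 gene lies on the minus strand of chromosome 19 (chr19:15159038-15200995, RefSeq, GRCh38.p14) and JAG1 on the minus strand of chromosome 20 (chr20:10637684-10673999). The 250 bases before the annotated start are shown for these genes, for NRARP, a target that rose, and for the downstream start of LFNG, a glycosyltransferase gene that fell. Capitals mark matches on either strand to GGGCGG (the GC box bound by SP-family factors; CCGCCC on the other strand) or to TGGGAA (a core of the RBPJ site; TTCCCA on the other strand), and every sequence is from RefSeq, written 5′ to 3′ on the gene's strand.
NOTCH3: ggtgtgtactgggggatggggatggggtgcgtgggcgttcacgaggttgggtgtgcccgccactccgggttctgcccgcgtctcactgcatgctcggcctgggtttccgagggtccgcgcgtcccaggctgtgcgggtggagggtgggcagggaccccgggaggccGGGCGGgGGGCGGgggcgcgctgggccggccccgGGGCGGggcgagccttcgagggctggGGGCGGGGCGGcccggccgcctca
JAG1: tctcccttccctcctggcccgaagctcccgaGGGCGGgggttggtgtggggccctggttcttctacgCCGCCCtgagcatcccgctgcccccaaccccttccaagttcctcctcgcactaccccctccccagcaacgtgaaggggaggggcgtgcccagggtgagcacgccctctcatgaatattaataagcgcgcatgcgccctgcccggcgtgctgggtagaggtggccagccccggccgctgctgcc
NRARP: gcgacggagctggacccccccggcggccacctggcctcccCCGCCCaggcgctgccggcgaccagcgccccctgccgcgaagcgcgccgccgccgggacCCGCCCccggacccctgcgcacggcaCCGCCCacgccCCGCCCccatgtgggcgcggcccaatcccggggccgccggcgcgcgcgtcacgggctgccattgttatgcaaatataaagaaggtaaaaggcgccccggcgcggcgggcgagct
LFNG: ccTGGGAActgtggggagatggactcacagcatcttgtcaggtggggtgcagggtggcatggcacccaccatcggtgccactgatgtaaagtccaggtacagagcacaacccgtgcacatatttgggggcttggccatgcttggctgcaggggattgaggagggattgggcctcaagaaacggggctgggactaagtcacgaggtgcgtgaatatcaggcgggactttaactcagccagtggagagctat

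These windows were chr19:15200996-15201245 (minus strand) for NOTCH3, chr20:10674000-10674249 (minus) for JAG1, chr9:137302272-137302521 (minus) for NRARP and chr7:2517613-2517862 (plus) for LFNG. The NOTCH3 window was 78.0% G and C, against a median of 58.0% over all 35116 annotated windows of the same length. It held 5 GC boxes, with first bases at positions -84, -77, -50, -24 and -19 from the start, the last pair sharing a base, and no TGGGAA. The JAG1 window had 2 GC boxes, at -219 and -183, and the NRARP window 4, at -210, -151, -125 and -114, both without TGGGAA. The downstream LFNG window carried TGGGAA once, at -248. The upstream LFNG window, not shown, had no TGGGAA and 1 GC box, at -113. Over all windows, 42.6% held at least 1 GC box and 20.8% at least 1 TGGGAA. Of the 34 Notch pathway genes in the table described below, 30 had windows, 52 in all since some genes have several starts. Of these windows 32 (61.5%) held the GC box and 10 (19.2%) TGGGAA. A match describes these letters only and is not evidence of binding.

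NOTCH3 stood at 26.3, 25.5 and 28.1 FPKM in control libraries 1, 2 and 3, and at 0.914, 1.10 and 0.846 FPKM in bufotalin libraries 1, 2 and 3. Every bufotalin library was far below every control library, and within each group the 3 values lay close together. The means were 26.6 ± 1.31 FPKM in control and 0.952 ± 0.130 FPKM with bufotalin (SD, n = 3 each here and below), which is 28.0-fold lower. On the log2(FPKM + 1) scale, which understates the change of a gene that ends this low, the difference was -3.82 (SE 0.11), the lowest of the 4273 tested genes, followed by ACY1 at -3.52 and UCP2 at -3.39 (named after its value was seen). In control libraries NOTCH3 exceeded 82.3% to 83.9% of the genes in the table, and in bufotalin libraries 24.0% to 26.8% of them.

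JAG1 stood at 9.12, 7.96 and 10.2 FPKM in control and at 11.3, 11.0 and 10.3 FPKM with bufotalin. Its lowest bufotalin value was just above its highest control value, so the groups did not overlap although they nearly met. The means were 9.08 ± 1.10 and 10.9 ± 0.481 FPKM, a ratio of 1.196, and the log2 difference was 0.24 (SE 0.12). Receptor and ligand thus changed places: NOTCH3 was 2.88, 3.21 and 2.76 times the level of JAG1 in control libraries, while JAG1 was 12.4, 9.995 and 12.2 times the level of NOTCH3 in bufotalin libraries.

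**Figure D1:**
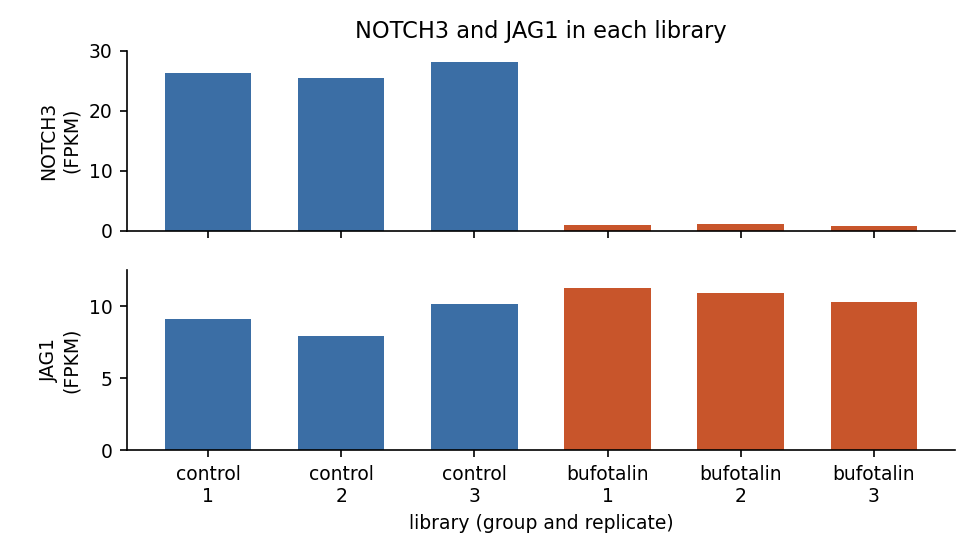
NOTCH3 (top) and JAG1 (bottom) in FPKM in each total RNA library, 1 bar per library, on axes that start at 0. The NOTCH3 bars fall from 25.5 to 28.1 FPKM in control to 0.846 to 1.10 FPKM with bufotalin, whereas the JAG1 bars run from 7.96 to 10.2 FPKM in control and from 10.3 to 11.3 FPKM with bufotalin.

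The rest of the pathway was described from lists of 103 genes grouped by role, of which 34 were in the table. Leaving aside the 10 genes above, 93 were listed, 32 were in the table and 29 averaged 0.5 FPKM or more and were tested with limma. Of these 29, 18 rose with bufotalin, 9 fell and 2 did not pass the test, beside the 93.2% of all tested genes that were called. Their median log2 difference was 0.38, beside 0.13 over all 4273 tested genes. The groups did not overlap in 29 of the 32, beside 92.4% of the table. The number called in the pathway ran from 22 to 29 over the alternatives, with 22 (13 higher and 9 lower) when control library 2 or bufotalin library 3 was left out.

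NOTCH3 held the third highest FPKM among the 34 genes in control, after the target genes CCND1 (41.5 ± 5.29) and CDKN1A (31.7 ± 3.65), and place 30 with bufotalin. JAG1 went from place 22 to place 17. Every CDKN1A control library was above every NOTCH3 control library. With bufotalin NOTCH3 lay next to the repressor gene L3MBTL3 (1.09 ± 0.514 FPKM), from which it did not differ beyond the spread.

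**Figure D2:**
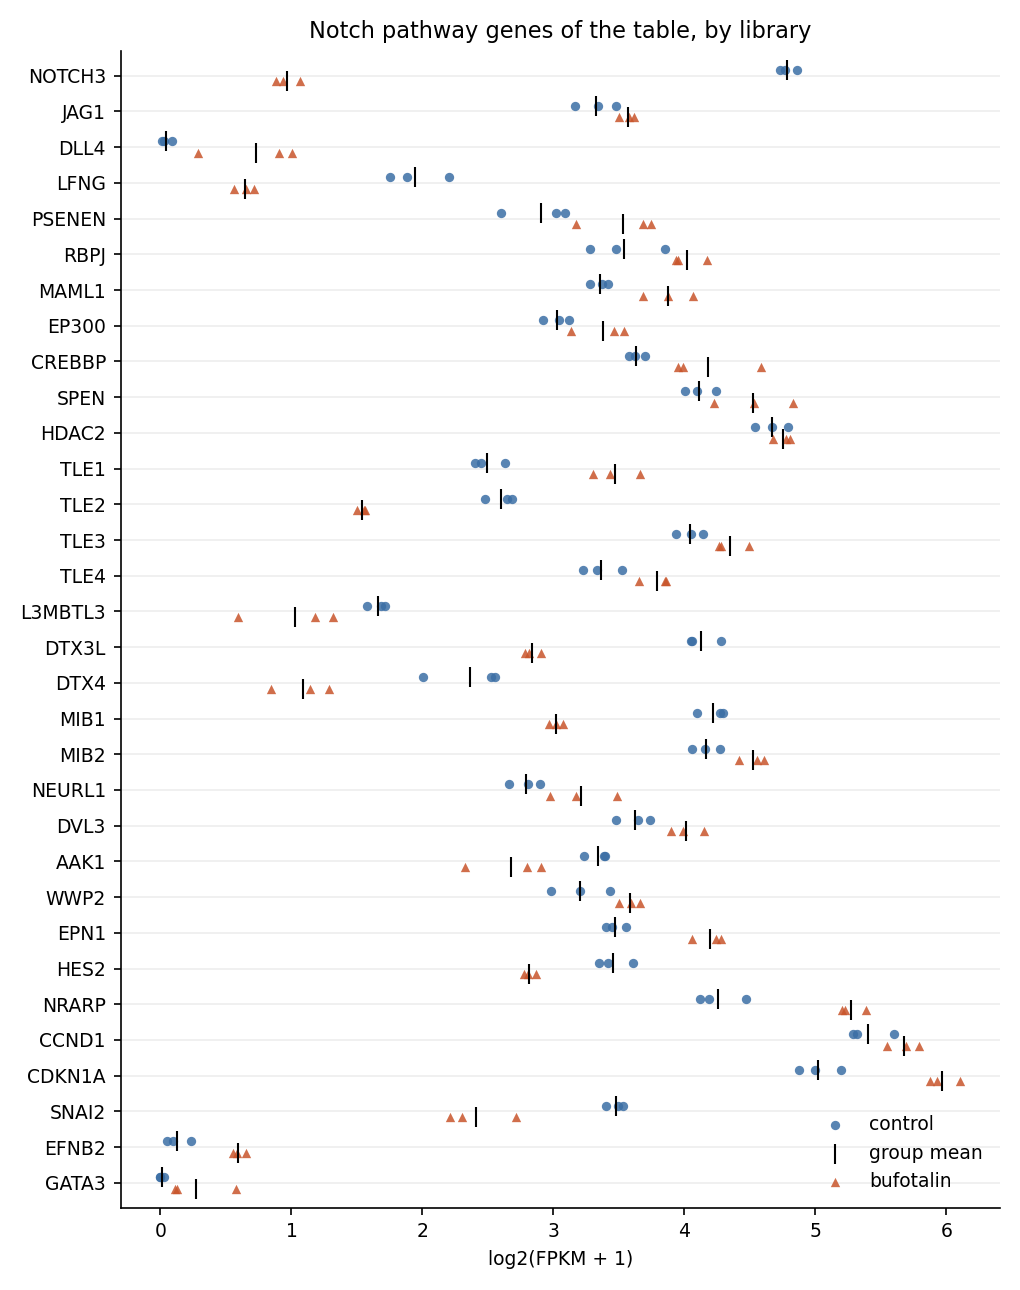
Level of 32 of the 34 Notch pathway genes in the table on the log2(FPKM + 1) scale, with 1 point per library (circles control, triangles bufotalin) and a vertical tick at each group mean. NOTCH3 moves from the third highest place in control to place 30 with bufotalin, and most other genes shift by far less.

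Among the ligands, the table also lists DLL4, a ligand of sprouting vessels, at levels below the minimum for a test. DLL4 stood at 0.0103, 0.0624 and 0.0212 FPKM in control and at 0.220, 1.00 and 0.871 FPKM with bufotalin. It was low throughout, with all bufotalin libraries above all control libraries and library 1 well below the other bufotalin libraries.

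LFNG, or Lunatic fringe, adds a sugar to Notch receptors in the Golgi and thereby shifts their preference between Delta-like and Jagged ligands. It was the single gene of 9 listed glycosylation enzymes in the table. LFNG stood at 2.69, 2.37 and 3.60 FPKM in control and at 0.638, 0.571 and 0.476 FPKM with bufotalin, with no overlap. The fall was 5.14-fold in the means, or -1.30 on the log2 scale (SE 0.13, limma adjusted p = 1.73e-05), and -0.59 after quantile normalization, where the call was kept.

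Of 9 listed proteases, 2 were in the table and both rose, beside 44.3% of all tested genes called higher. PSENEN, a subunit of gamma-secretase, stood at 7.49, 5.06 and 7.12 FPKM in control and at 11.9, 12.4 and 7.997 FPKM with bufotalin. The groups did not overlap, although bufotalin library 3 came close to the highest control. It went from 6.55 ± 1.31 to 10.8 ± 2.41 FPKM, a log2 difference of 0.63 (SE 0.19, limma adjusted p = 0.00997).

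Of 11 nuclear activators, 4 were in the table and all 4 rose, beside 44.3% of all tested genes called higher. RBPJ, the DNA-binding protein of the pathway, stood at 8.73, 10.1 and 13.4 FPKM in control and at 14.4, 14.3 and 17.1 FPKM with bufotalin. Its highest control library came close to the lowest bufotalin library without reaching it. The log2 difference was 0.48 (SE 0.16, limma adjusted p = 0.0143). That call was lost without control library 1 (0.35, limma adjusted p = 0.0573) and without bufotalin library 3 (0.40, limma adjusted p = 0.0538), and adjusted p ran from 0.00132 to 0.0573 over the alternatives.

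MAML1, the Mastermind coactivator, stood at 9.67, 8.72 and 9.33 FPKM in control and at 13.7, 11.8 and 15.8 FPKM with bufotalin, a log2 difference of 0.52 (SE 0.12, limma adjusted p = 0.00303). The histone acetyltransferases EP300 and CREBBP, which Mastermind recruits, rose by 0.35 (SE 0.13) and 0.54 (SE 0.17) on the log2 scale, with limma adjusted p = 0.0280 and 0.0116. CREBBP stood highest in bufotalin library 3, at 23.0 FPKM against 14.5 and 14.9 FPKM in the others, and without that library its difference was 0.34 (limma adjusted p = 0.0209). EP300 was 0.62 higher after quantile normalization. The call for EP300 was lost without control library 1 (0.30, limma adjusted p = 0.0892), bufotalin library 2 (0.31, limma adjusted p = 0.0853) or bufotalin library 3 (0.27, limma adjusted p = 0.0966), with adjusted p from 0.00179 to 0.0966 over the alternatives. All 4 activators in the table were thus higher, by smaller steps than NOTCH3 was lower. Since RBPJ and EP300 lost their calls under some alternatives, the count of 4 is not read as a trait of the activators.

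Repressors of Notch targets moved in both directions. Of 15 listed, 8 were in the table, of which 5 rose, 2 fell and 1 (HDAC2, a histone deacetylase, 24.5 ± 2.24 and 26.0 ± 1.25 FPKM) did not pass the test. Of all tested genes, 44.3% were called higher and 48.8% lower, so these counts are not read as a trait of the repressors. TLE1 and TLE2 encode Groucho-type corepressors that HES and HEY proteins recruit, and they moved in opposite directions. TLE1 stood at 5.21, 4.28 and 4.45 FPKM in control and at 11.7, 9.81 and 8.89 FPKM with bufotalin, and TLE2 at 5.44, 4.56 and 5.25 FPKM in control and at 1.96, 1.93 and 1.84 FPKM with bufotalin. Neither gene overlapped between groups. TLE1 was 2.18-fold higher (log2 0.97, SE 0.13, limma adjusted p = 7.96e-05) and TLE2 2.66-fold lower (log2 -1.06, SE 0.11, limma adjusted p = 2.02e-05, and -0.43 with its call kept after quantile normalization).

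L3MBTL3, a repressor that binds RBPJ, fell from 2.16 ± 0.149 to 1.09 ± 0.514 FPKM (log2 -0.63, limma adjusted p = 0.00780), but after quantile normalization its difference was 0.11 and the call was lost (limma adjusted p = 0.549, the highest over the alternatives). Without bufotalin library 2 it was -0.41, with the call kept. TLE3, TLE4 and SPEN (named after their values were seen) were also among the genes that rose. SPEN lost its call without control library 2 or 3 or bufotalin library 2 or 3, where its log2 difference was 0.40, 0.36, 0.41 and 0.26 (0.41 with all libraries), after quantile normalization (limma adjusted p = 0.0504) and with the replicate number as a block (limma adjusted p = 0.0586). TLE3 lost its call without control library 2 or 3 or bufotalin library 3, at 0.31, 0.25 and 0.23 (0.30 with all), and with the replicate number as a block (limma adjusted p = 0.0537). TLE4 kept its call at 0.43 with all libraries and under every alternative run.

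Genes of receptor and ligand ubiquitination, endocytosis and turnover moved in both directions. Of 22 listed, 9 were in the table, with 5 higher and 4 lower, beside 44.3% and 48.8% of all tested genes. Such a split is near that of the whole table and is not read as a trait of these genes. DTX3L, an E3 ubiquitin ligase of the Deltex family, stood at 15.6, 15.6 and 18.4 FPKM in control and at 6.04, 5.90 and 6.48 FPKM with bufotalin. Values were tight in both groups and 2.69-fold apart (log2 -1.29, SE 0.11, limma adjusted p = 7.15e-06). DTX4, another Deltex ligase, went from 4.22 ± 1.05 to 1.15 ± 0.328 FPKM (log2 -1.27, SE 0.18, limma adjusted p = 0.000112, and -0.58 with its call kept after quantile normalization).

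MIB1, the ubiquitin ligase that Jagged and Delta-like ligands need to be internalised and to pull on the receptor, stood at 18.3, 16.1 and 18.7 FPKM in control and at 6.82, 7.41 and 7.10 FPKM with bufotalin. It was lower in every bufotalin library, 2.49-fold in the means (log2 -1.20, SE 0.11, limma adjusted p = 8.93e-06). Its relative MIB2 stood at 16.9, 15.7 and 18.3 FPKM in control and at 22.5, 23.4 and 20.3 FPKM with bufotalin, a rise of 0.36 on the log2 scale (SE 0.11, limma adjusted p = 0.0116) that was lost without control library 2 (0.31, limma adjusted p = 0.0502, the highest over the alternatives). MIB2, AAK1, DVL3, NEURL1 and WWP2 were named after their values were seen. EPN1, an epsin adaptor for endocytosis of ubiquitinated ligands, rose from 10.1 ± 0.583 to 17.3 ± 1.43 FPKM (log2 0.73, SE 0.11, limma adjusted p = 0.000200). AAK1, a kinase of clathrin-mediated endocytosis, fell by 0.66 on the log2 scale, and by 0.35 and without a call after quantile normalization. DVL3, a Dishevelled scaffold protein, rose by 0.39. The ligases NEURL1 and WWP2 rose by 0.42 and 0.38 (0.78 and 0.59 after quantile normalization), but NEURL1 lost its call without control library 2 (0.35) or bufotalin library 1 (0.28) and WWP2 without control library 2 (0.27) or bufotalin library 3 (0.35). Thus MIB1 fell, whereas MIB2, NEURL1 and EPN1 rose, with the calls for MIB2 and NEURL1 lost under the alternatives just given.

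HES2 was the single gene in the table of 10 listed from the HES and HEY families. It stood at 9.19, 11.2 and 9.68 FPKM in control and at 6.28, 5.86 and 5.98 FPKM with bufotalin. All bufotalin libraries were lower, by -0.64 on the log2 scale (SE 0.11, limma adjusted p = 0.000425) and by -0.38 with the call kept after quantile normalization. The classical readouts HES1, HES4, HEY1 and HEYL were not analysed here, and the fall of HES2 is not read as output of the pathway.

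Target genes outside the HES and HEY families moved apart from one another. NRARP, a target that encodes a feedback inhibitor of the Notch nuclear complex, stood at 21.2, 16.4 and 17.2 FPKM in control and at 36.4, 40.7 and 35.9 FPKM with bufotalin. It was 2.06-fold higher, with no overlap (log2 1.01, SE 0.13, limma adjusted p = 5.53e-05). CDKN1A, the cell-cycle inhibitor p21, which many pathways beside Notch control, rose from 31.7 ± 3.65 to 61.8 ± 5.24 FPKM (log2 0.95, SE 0.12, limma adjusted p = 7.17e-05).

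SNAI2, a transcription factor of epithelial to mesenchymal transition, fell from 10.1 ± 0.517 to 4.38 ± 1.05 FPKM (log2 -1.07, SE 0.14, limma adjusted p = 9.30e-05). CCND1, or cyclin D1, did not pass the test (log2 0.27, limma adjusted p = 0.0591), but did so without control library 3 (0.37, limma adjusted p = 0.0138), without bufotalin library 2 (0.34, limma adjusted p = 0.0496), with the replicate number as a block (limma adjusted p = 0.0444) and with equal medians (0.53, limma adjusted p = 0.00226). After quantile normalization it was 0.016, with adjusted p from 0.00226 to 0.910 over the alternatives. EFNB2 and GATA3 were below the minimum for a test. EFNB2, an ephrin ligand of arterial endothelium, lay at 0.0360 to 0.176 FPKM in control and 0.467 to 0.570 FPKM with bufotalin.

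**Figure D3:**
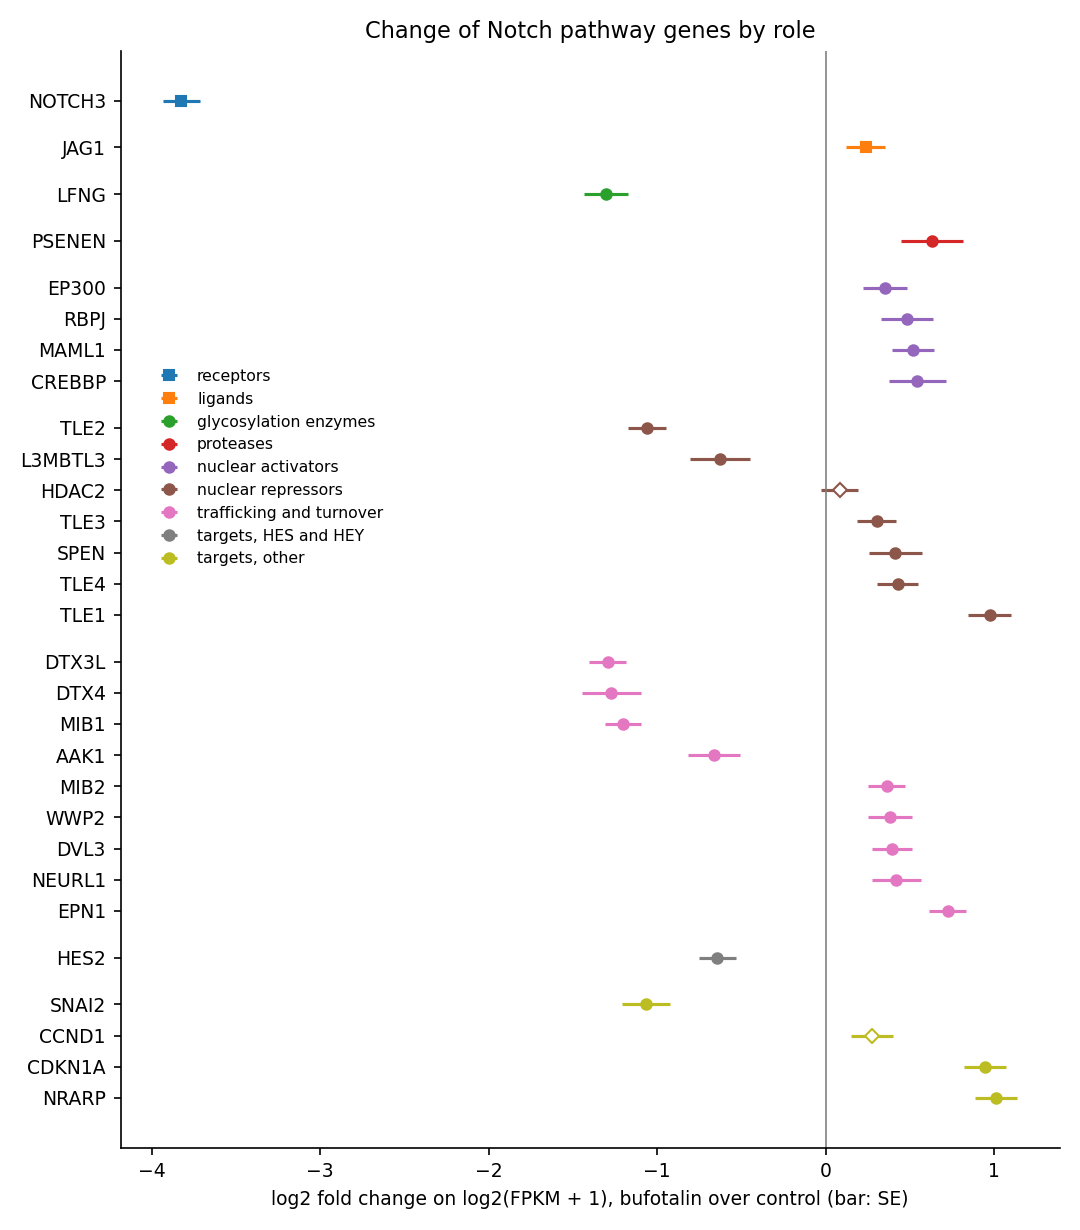
Difference between bufotalin and control on log2(FPKM + 1) for 29 of the 31 Notch pathway genes above the minimum of 0.5 FPKM, coloured by role, with bars of 1 SE. Filled circles passed the limma test, open diamonds did not, and squares (NOTCH3 and JAG1) are described without a test; NOTCH3 stands at -3.82 and all others lie between -1.30 and 1.01.

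Over the 6 libraries, the genes whose log2(FPKM + 1) values followed NOTCH3 most closely were SUMF1, ACY1, ZRANB3, ENTPD2 and KDM1B, each with a Pearson r of 0.999 or more among the 4021 genes that averaged 1 FPKM or more. With 3 libraries a group, such an r mostly reflects a shared difference between groups, and 1405 of the 4021 genes (34.9%) had r over 0.95. ACY1, an aminoacylase, went from 31.4 ± 0.918 to 1.82 ± 0.210 FPKM and ENTPD2, an ectonucleotidase, from 8.59 ± 0.841 to 0.611 ± 0.0444 FPKM. The 5 genes had log2 differences from -3.52 to -0.90.

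Since NOTCH3 is known in mural cells of vessels, markers of other cells that a tumour can hold were set beside it. The host animal is not given and GRCh38 is the only genome named, so RNA of host cells and of tumour cells cannot be told apart. These levels are therefore not read as amounts of such cells. Of 11 mural markers (smooth muscle and pericyte), 6 were in the table. Their summed level was 34.8 to 43.5 FPKM in control and 47.0 to 49.7 FPKM with bufotalin, set mostly by MCAM (listed under a clone name and matched by its identifier) and CSPG4. MCAM rose by 0.81 on the log2 scale, and TAGLN fell from 4.79 ± 0.593 to 0.982 ± 0.126 FPKM (log2 -1.54, and -0.87 with its call kept after quantile normalization). CSPG4 did not pass (log2 0.25), but it was called without control library 3 (0.32), after quantile normalization (0.35) and with equal medians (0.49). MCAM, CSPG4 and PDGFRB were named after their values were seen.

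The other 3 mural markers reached the minimum of 0.5 FPKM only through the control group, where they were higher, so no call is read from them. DES, the muscle intermediate filament, was at 2.01 ± 0.509 FPKM in control and 0.0646 ± 0.0341 FPKM with bufotalin, and ACTA2, smooth muscle actin, at 1.79 ± 0.350 and 0.385 ± 0.216 FPKM. PDGFRB, the pericyte receptor, stood at 0.860, 0.918 and 1.24 FPKM in control and at 0.341, 0.369 and 0.367 FPKM with bufotalin, a log2 difference of -0.56 that was 0.094 after quantile normalization. NOTCH3 was far above PDGFRB in every control library.

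Of 12 fibroblast markers, 5 were in the table and all 4 that were tested fell, beside 48.8% of all tested genes called lower. The largest falls were those of COL6A1 (28.9 ± 1.55 to 6.43 ± 0.948 FPKM, log2 -2.01) and COL5A1 (28.9 ± 1.71 to 7.78 ± 0.395 FPKM, log2 -1.77). The summed level of the 5 was 76.3 to 81.9 FPKM in control and 22.5 to 27.7 FPKM with bufotalin. Of 11 endothelial markers, EGFL7 fell (32.6 ± 0.845 to 8.45 ± 1.32 FPKM, log2 -1.84) and CDH5, a junction protein of endothelium, was at 0.0657 ± 0.0512 FPKM in control and 0.943 ± 0.262 FPKM with bufotalin, the group through which alone it reached the minimum. The sums were 32.2 to 33.7 FPKM in control and 8.46 to 10.6 FPKM with bufotalin. Of 8 leukocyte markers 3 were in the table, of which CSF1R alone was high enough to test and rose (log2 0.46, and 1.02 after quantile normalization), and their sum was 3.18 to 3.53 FPKM in control and 4.61 to 6.82 FPKM with bufotalin. KRT7, the single marker of 8 of bile duct cells in the table, fell from 102 ± 5.76 to 50.8 ± 8.87 FPKM (log2 -1.01). These levels moved beside NOTCH3, and their part in its difference was not tested.

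**Figure D4:**
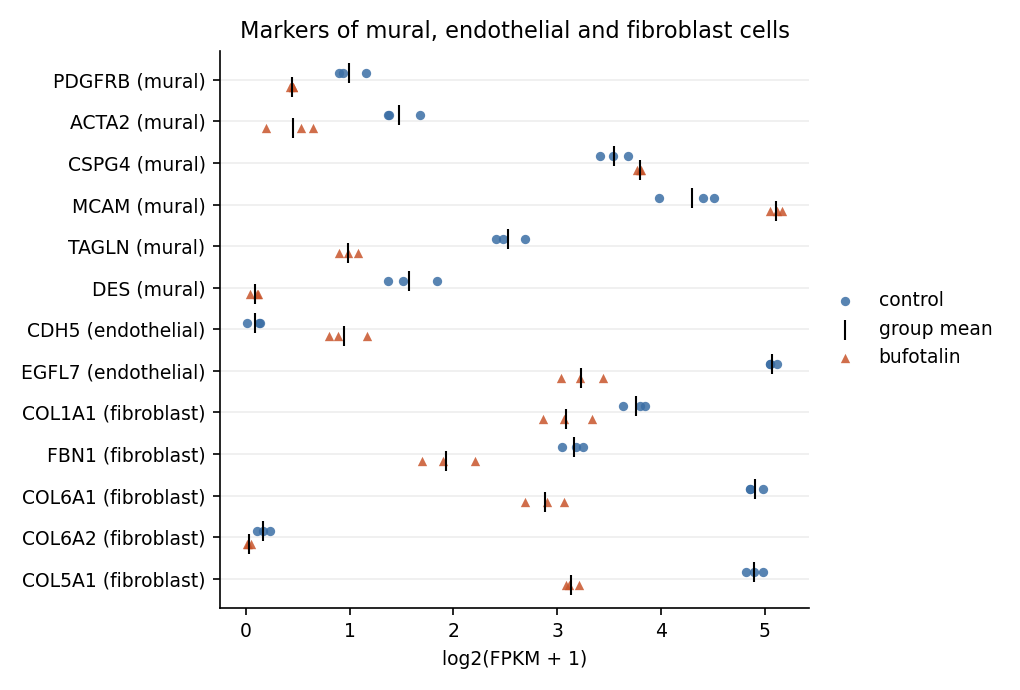
Markers of mural cells, endothelium and fibroblasts in the table on the log2(FPKM + 1) scale, 1 point per library (circles control, triangles bufotalin) with a vertical tick at each group mean. COL6A1, COL5A1, EGFL7 and TAGLN are lower in all 3 bufotalin libraries, and MCAM and CDH5 are higher.

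The authors' table of 536 noncoding transcripts, also selected as different, holds none from 15 names of Notch loci (Notch receptors, JAG1, JAG2, HES1, HES4, HEY1, HEYL, the NOTCH2NL copies, NALT1 and LUNAR1). It does hold 5 noncoding transcripts of other genes in the lists, named after their values were seen. Each reached the minimum of 0.1 FPKM only through the group where it was higher, so they are given as values with no test. A transcript of RFNG, or Radical fringe, a relative of LFNG, stood at 0.419, 0.735 and 1.29 FPKM in control and was listed at 0 in all bufotalin libraries. A transcript of DLL4 was listed at 0 in all control libraries and at 0, 0.766 and 0.710 FPKM with bufotalin. Among mural genes, a transcript of the pericyte marker RGS5 was at 0, 0 and 0.00599 FPKM in control and at 0.352, 0.424 and 0.600 FPKM with bufotalin. The RGS5 transcript, low throughout, was thus higher with bufotalin, as was MCAM, whereas DES, ACTA2, TAGLN and PDGFRB were lower. This comparison was not tested. In contrast, 2 transcripts of DES, at 0.116 to 0.694 FPKM in control, were listed at 0 in all bufotalin libraries.

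The small RNA counts are the measurement that played no part in the choice of NOTCH3. Library totals were 1869893 to 4197636 counts, and a count of 0 allows up to 3 counts, or 0.715 to 1.60 CPM (counts scaled to 1000000 per library), which covers counting error only. A list of 27 miRNAs that are known to target Notch genes or to mark mural and endothelial cells gave 25 in the table and 21 with enough counts to test. The mature sequences of those discussed are shown with the seed, bases 2 to 8, in capitals. miR-1-3p and miR-206 share a seed and are known to target NOTCH3, miR-146a and miR-146b share a seed and are known to target NUMB, an inhibitor of Notch, miR-34a is known to target NOTCH1 and JAG1, miR-30a belongs to a family known to target DLL4, and miR-143 is abundant in smooth muscle.
miR-1-3p: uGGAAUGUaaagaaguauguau
miR-206: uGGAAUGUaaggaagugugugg
miR-146a-5p: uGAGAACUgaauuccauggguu
miR-146b-5p: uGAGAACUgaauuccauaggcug
miR-34a-5p: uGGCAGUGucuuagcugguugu
miR-30a-5p: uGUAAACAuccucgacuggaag
miR-143-3p: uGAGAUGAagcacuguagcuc

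By edgeR's quasi-likelihood test, 0 of the 21 passed, beside 27 of 477 tested features (5.66%). At an unadjusted p under 0.05 there were 6 of 21, beside 26.0% of all tested. DESeq2, run without that count filter, called 2 of 25 listed miRNAs, miR-1-3p and miR-146b-5p, beside 55 of 1451 features. The miRNAs known to target NOTCH3 or NUMB are named below after their values were seen. The groups did not overlap in 6, beside 27.3% of all tested.

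miR-1-3p stood at 90.3, 70.6 and 50.6 CPM in control and at 153, 418 and 56.0 CPM with bufotalin. Bufotalin library 2 was far above the others of its group and library 3 lay among the controls. The log2 difference was 1.68 (SE 0.57, edgeR adjusted p = 0.0947), and adjusted p ran from 0.00220 to 0.496 over the alternatives. Without bufotalin library 2 the difference was 0.69 (edgeR adjusted p = 0.496). miR-206 had 0 to 4 counts per library and was too low to test. miR-150-5p, the third miRNA known to target NOTCH3, had 50.01 CPM in bufotalin library 2 and 0.492 to 3.41 CPM in the other 5 libraries and did not pass the count filter.

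miR-146b-5p stood at 93.9, 203 and 76.7 CPM in control and at 245, 231 and 482 CPM with bufotalin, without overlap. Its log2 difference of 1.66 (SE 0.43) came closest to the threshold (edgeR adjusted p = 0.0510, with 0.00144 to 0.118 over the alternatives). miR-146a-5p, of the same seed, differed in the same direction by 1.10 (SE 0.46, edgeR adjusted p = 0.156).

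miR-34a-5p stood at 325, 711 and 248 CPM in control and at 223, 184 and 141 CPM with bufotalin. Every bufotalin library was lower than every control library, and control library 2 was well above the rest. The log2 difference of -1.004 (SE 0.32) did not pass (edgeR adjusted p = 0.0831), whereas without control library 3 it was -1.20 (edgeR adjusted p = 0.0442, in a range of 0.0442 to 0.276 over the alternatives).

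The miR-30 family was the most abundant of those listed. miR-30d-5p had 21883 ± 5072 CPM in control and 32192 ± 4004 CPM with bufotalin (log2 0.71, SE 0.28, edgeR adjusted p = 0.136), and miR-30a-5p 17747 ± 6390 and 21888 ± 3140 CPM (edgeR adjusted p = 0.293). None of the 5 members passed. miR-30c-5p passed without control library 1 alone (log2 1.11, edgeR adjusted p = 0.0262, against 0.238 with all libraries and up to 0.530 over the alternatives). The 5 members of the miR-200 family, known to target JAG1 and Mastermind genes, had edgeR adjusted p of at least 0.245.

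The mural miR-143-3p stood at 454, 489 and 107 CPM in control and at 674, 641 and 674 CPM with bufotalin, higher in every bufotalin library (log2 1.19, SE 0.42, edgeR adjusted p = 0.101). Its direction was that of MCAM, which rose, and CSPG4, which did not pass, and the opposite of that of TAGLN, DES, ACTA2 and PDGFRB. These comparisons were not tested. miR-126-3p, an endothelial miRNA encoded within EGFL7, had 2118 ± 120 CPM in control and 1726 ± 215 CPM with bufotalin (log2 -0.15, SE 0.31, edgeR adjusted p = 0.817), beside the 3.86-fold fall of its host gene. The difference between the miRNA and its host was not tested.

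**Figure D5:**
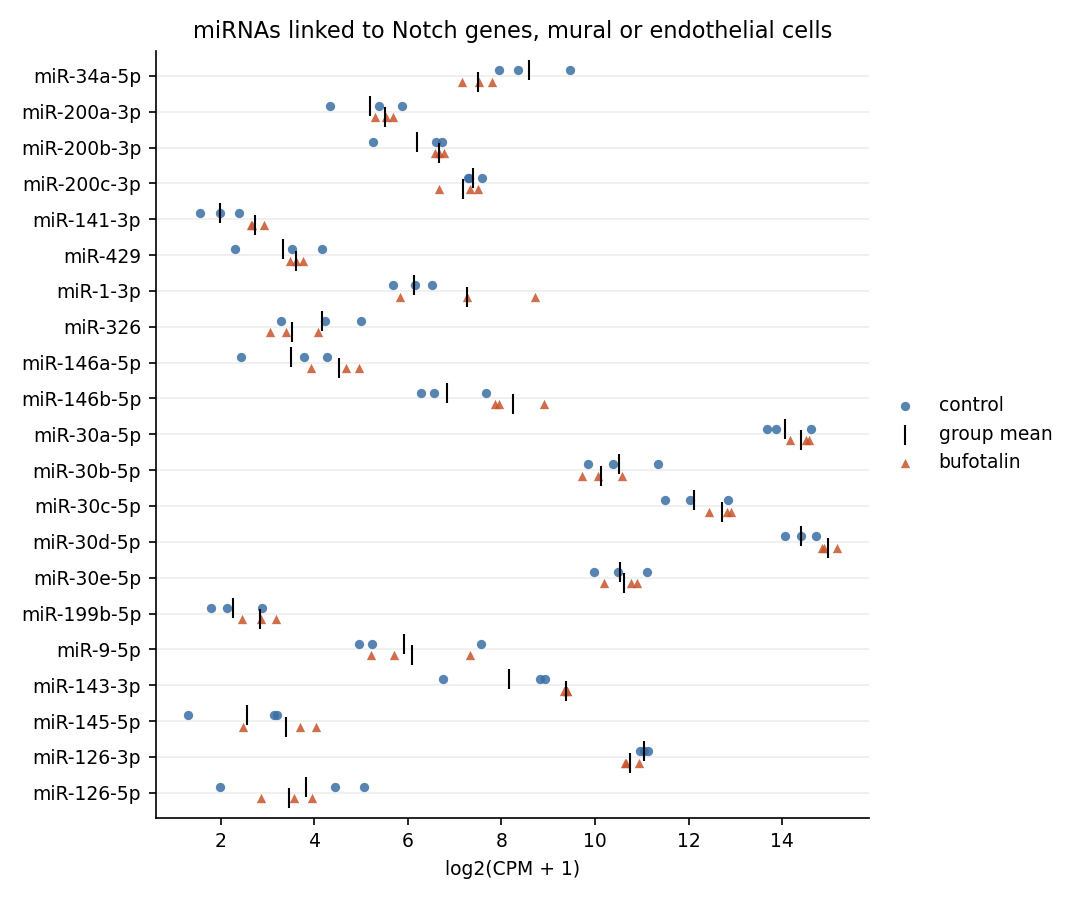
The 21 tested miRNAs that are linked to Notch genes or to mural and endothelial cells, on the log2(CPM + 1) scale, 1 point per small RNA library (circles control, triangles bufotalin) with a vertical tick at each group mean. None passed the edgeR test; miR-146b-5p and miR-143-3p are higher and miR-34a-5p is lower in all 3 bufotalin libraries.

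miRNAs encoded within the Notch genes were looked up by RefSeq position, on the same strand, after the data had been seen. There were 24 mature miRNAs in 16 host genes, 11 of them in the small RNA table and 4 testable. The miRNAs within NOTCH3 (miR-6795) and JAG1 (miR-6870) had no row in that table, so the host genes' difference could not be followed there. None of the 4 passed edgeR's test, beside 5.66% of all tested features, and DESeq2 called 0 of them. At an unadjusted p under 0.05 there were 2 of the 4, beside 26.0% of all tested, too few miRNAs to compare with that share.

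miR-629-3p, encoded within the corepressor gene TLE3, stood at 14.5, 40.4 and 18.2 CPM in control and at 10.2, 7.79 and 5.25 CPM with bufotalin. It was lower in all bufotalin libraries (log2 -1.46, SE 0.43, edgeR adjusted p = 0.0704), and it passed without control library 1 (-1.72, edgeR adjusted p = 0.0359, in a range of 0.0359 to 0.228 over the alternatives). TLE3 itself was 0.30 higher on the log2 scale (limma adjusted p = 0.0295), a call that was lost under the alternatives given above. The opposite arm, miR-629-5p, differed by -0.68 (SE 0.31, edgeR adjusted p = 0.189).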

How the data were processed

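TRIzol was used for RNA and a NEBNext Ultra kit for the libraries, per the labels' protocols. The submitters' processing notes name CASAVA 1.8, fastp, HISAT2 2.0.5, featureCounts 1.5.0-p3, DESeq2 1.20.0 and GRCh38; their roles, the strandedness and the rule by which the tables were selected are not given in the sources used here. For total RNA, the authors deposited FPKM per gene and per noncoding transcript, and for small RNA a read count and a TPM per miRNA (the count over the library total, largest difference 4.37e-10). The depth of the total RNA libraries is unknown: of ratios between libraries of FPKM under 0.1, at most 9 in a pair were equal to 3 decimals.

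FPKM were compared with limma 3.58.1 (trend, robust) on log2(FPKM + 1) (genes averaging 0.5 FPKM or more), and on log2(FPKM + 0.1) (transcripts averaging 0.1 FPKM or more). Counts were compared with edgeR 4.0.16 (TMM, filterByExpr, robust quasi-likelihood), with DESeq2 1.42.0 as an alternative. CPM are counts over the library total, scaled to 1000000. Tests were two-sided over all features of a table, adjusted by Benjamini and Hochberg and called at 0.05, and were tested on simulated data. Of 4988 genes, 4968 matched the gene reference by identifier, and 22 of 27 listed miRNAs had a sequence in it. The Notch genes and all lists were chosen with earlier results of these data known. Named are the Notch genes above, up to 4 genes of each Notch list and 3 of each marker list by the size of the difference, the 5 genes most like NOTCH3, its neighbours in the table, the 8 most abundant listed miRNAs, and others said to be chosen after their values were seen. Some genes that this rule names are not reported here. Alternatives were another pseudocount, minimum or normalization, a replicate block and each library left out.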

Additional observations from a re-analysis of the deposited data

How the results depend on the processing

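Of 49 genes of the mRNA table followed across the alternatives, 34 kept their direction and their side of the threshold under every alternative run, 12 lost a call under at least 1, 3 gained one and 3 changed sign. The log2 difference of NOTCH3 was -4.67 with a pseudocount of 0.1 FPKM, -3.52 after quantile normalization, -3.64 after setting medians equal, and -3.88 to -3.79 with 1 library left out. That of JAG1 was 0.42 after quantile normalization, 0.47 with equal medians and 0.16 to 0.32 with 1 library left out. The median of all tested genes was 0.13, and 0.39 with equal medians, so that differences there are read against that shift. After quantile normalization HDAC2 stood at -0.018, L3MBTL3 at 0.11 and PDGFRB at 0.094. With a pseudocount of 0.1 FPKM the low genes LFNG and L3MBTL3 stood at -2.16 and -1.04. Signs also changed for miR-9-5p (-0.042 with library totals, and -0.72 to 1.32 with 1 library left out), miR-200c-3p (-0.33 to 0.061 with 1 left out), miR-126-3p (-0.37 to 0.032) and miR-140-5p, within WWP2 (0.033 with RLE factors, 0.026 with DESeq2, -0.20 to 0.14 with 1 left out). The library whose absence changed the sign was bufotalin 3 for miR-9-5p, control 1 or bufotalin 3 for miR-200c-3p, control 3 for miR-126-3p, and control 1 or 2 or bufotalin 3 for miR-140-5p. Of all miRNAs, 27 were called, 55 with DESeq2, 6 to 40 with 1 library left out (13, 8 and 6 without bufotalin library 1, 2 and 3, and 40 without control library 1) and 3 with the replicate number as a block. Of the listed miRNAs 0 were called, 1 with RLE factors, 2 without a count filter, 2 with DESeq2 and 0 to 1 with 1 library left out. The block gave 26 called Notch genes beside NOTCH3 and JAG1 in place of 27 (SPEN and TLE3 lost, CCND1 gained), and 3957 genes of the whole table in place of 3981. Whether replicate numbers pair the samples is not known. Same-numbered libraries' deviations had r of -0.0171, 0.0263 and -0.0518 for genes and 0.135, 0.0291 and 0.364 for miRNAs. Not every library correlated best with its own number, but 3 libraries a group are too few to settle pairing. Depth limits the low genes DLL4, EFNB2 and GATA3, for which no counts were at hand.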
